A study of Homo sapiens with 4 samples.

Results

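Integrin subunits were described here on 4 Affymetrix U133 Plus 2.0 arrays of breast cancer cells given JPH203, an inhibitor of the amino acid transporter LAT1, or its vehicle. The members were a list of 10 genes, ITGA2, ITGA3, ITGA5, ITGA6, ITGAV, ITGB1, ITGB3, ITGB4, ITGB5 and ITGB6, and every probe set whose annotation names a member alone was taken, which gave 30 of the 54675 probe sets and 9 of the 10 genes. ITGB6 had no such probe set. The 4 that name it also name LINC02478, so no level is given for ITGB6. The arrays were, 1 each, MDA-MB-231 cells with 100 μM JPH203, MDA-MB-231 cells with Captisol, T-47D cells with 100 μM JPH203 and T-47D cells with Captisol, all for 24 h in RPMI1640 complete medium. MDA-MB-231 is an established triple negative line and T-47D an established line with estrogen receptor, each standing for a single tumor. Captisol is a modified cyclodextrin, used as the control at the same labelled concentration. With 1 array per condition no ratio below has an error, a replicate check or a p-value.

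Integrins are cell surface receptors built of an α and a β chain, which bind proteins of the extracellular matrix outside the cell and, through talin and kindlin on the β tail, the actin cytoskeleton inside it. The β1 chain pairs with many α chains, among them those for collagen (α2), laminin (α3 and α6) and fibronectin (α5). The αV chain pairs with β1, β3, β5 and β6 to bind matrix proteins such as vitronectin and fibronectin, and β4 pairs with α6 in hemidesmosomes, the anchors of epithelial cells to laminin. In breast epithelium they hold cells to the basement membrane, and in tumor cells they are known for their part in migration and invasion.

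The sequence before the annotated start of 3 genes is shown because these were the members with enough signal to be compared on both T-47D arrays, and all were lower with JPH203 there. Each run is the 250 bases before the start on the gene's strand, from RefSeq on GRCh38.p14, which held a promoter for 7 of the 10 members. Capitals mark matches on either strand to the GC box GGGCGG, the TEAD motif GGAATG, or TGATGNAA, a composite of C/EBP and ATF4 half-sites. No marked motif overlaps another.
ITGAV (chr2:186589806-186590055, plus strand): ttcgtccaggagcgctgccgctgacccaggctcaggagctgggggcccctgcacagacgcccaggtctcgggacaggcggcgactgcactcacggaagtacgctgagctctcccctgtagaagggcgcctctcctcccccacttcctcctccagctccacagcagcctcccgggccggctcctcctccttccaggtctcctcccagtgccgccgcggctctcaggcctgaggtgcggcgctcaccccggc
ITGB1 (chr10:32958231-32958480, minus strand): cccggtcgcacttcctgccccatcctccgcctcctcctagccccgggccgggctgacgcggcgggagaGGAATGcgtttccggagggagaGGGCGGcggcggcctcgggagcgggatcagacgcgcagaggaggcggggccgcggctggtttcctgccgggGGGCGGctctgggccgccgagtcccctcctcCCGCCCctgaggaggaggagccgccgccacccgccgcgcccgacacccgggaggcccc
ITGB5 (chr3:124901419-124901668, minus strand): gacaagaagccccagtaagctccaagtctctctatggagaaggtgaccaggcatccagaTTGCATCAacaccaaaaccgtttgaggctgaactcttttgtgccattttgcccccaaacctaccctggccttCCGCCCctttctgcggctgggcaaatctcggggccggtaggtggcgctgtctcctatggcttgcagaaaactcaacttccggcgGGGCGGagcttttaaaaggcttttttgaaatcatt
GGGCGG occurred 3 times before ITGB1 and 2 times before ITGB5, and is found in 42.6% of the 35116 promoters of this length. GGAATG occurred once before ITGB1 (11.9% of promoters), and TGATGNAA once before ITGB5, read on the other strand as TTGCATCA (3.14% of promoters). None of these, nor AP-1 TGANTCA, E-box CACGTG or TATAAA (6.57%, 6.34% and 10.7% of promoters), matched the ITGAV window, so no searched motif was shared by all 3. A match is only a run of letters and was not tested as a site.

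Before the comparisons, the arrays were checked. All 14 luminal markers reached a signal of 100 on both T-47D arrays and 6 of 14 on both MDA-MB-231 arrays, while 10 of 11 mesenchymal markers reached it on both MDA-MB-231 arrays and 1 of 11 on both T-47D arrays. None of 5 leukocyte or 5 endothelial markers did on any array, with a highest signal of 30.0. Each array held 10831 to 11857 probe sets at 100 or more. The 3-prime to 5-prime ratio of ACTB, which tracks RNA integrity, was 1.44 with JPH203 and 1.45 with control in MDA-MB-231 cells, and 1.72 with JPH203 and 1.39 with control in T-47D cells. That of GAPDH ran the other way in T-47D cells, at 0.867 with JPH203 and 0.940 with control, and was 1.01 with JPH203 and 0.987 with control in MDA-MB-231 cells. Their part in the T-47D ratios was not tested. In bulk RNA, fewer cells of a kind and less RNA per cell cannot be told apart.

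**Figure D1:**
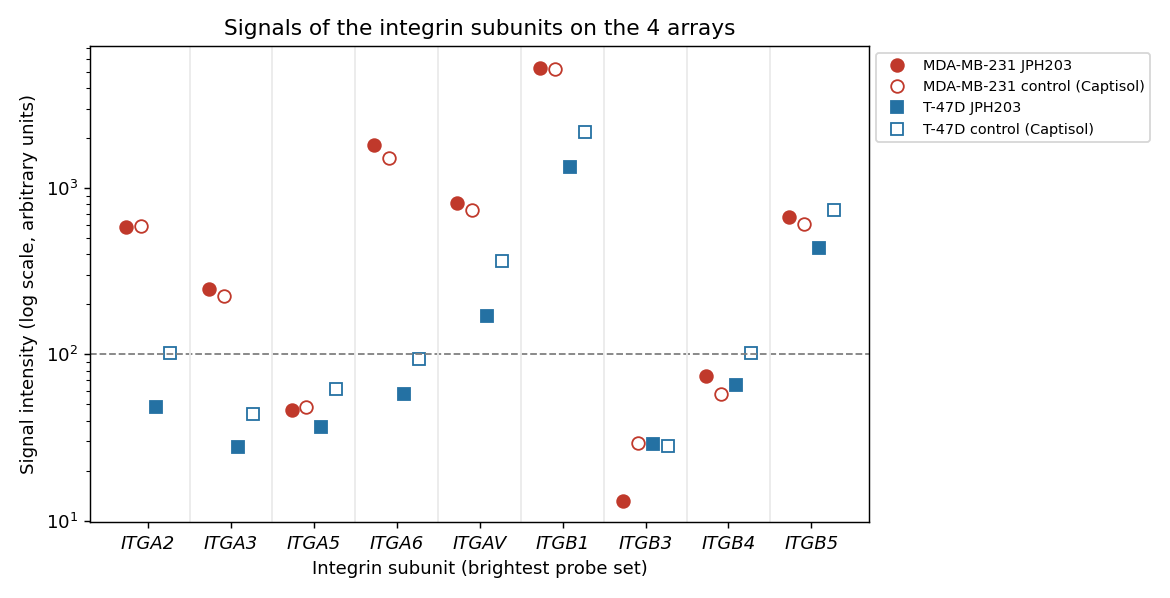
Signal intensity (y axis, log scale) by integrin subunit (x axis), from the brightest probe set of each, on the 4 arrays, with filled symbols for JPH203, open symbols for control, red circles for MDA-MB-231 and blue squares for T-47D. A point is 1 array, and a dashed line marks 100. Levels can be compared within a gene and not between genes, as probe sets differ in brightness. ITGA2, ITGA3, ITGA6, ITGAV and ITGB1 lie higher on both MDA-MB-231 arrays than on both T-47D arrays.

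A gene counted as changed by JPH203 when its brightest probe set differed 2-fold or more (a ratio of 0.5 or below, or 2 or above) and reached the minimum signal of 100 with and without the drug. In MDA-MB-231 cells, 6 of the 9 measured members passed the minimum and 0 were called. Over all 6757 genes tested there, 0.0888% were called higher and 0.0148% lower, so that 0 of 6 is what the background gives. The 6 ratios ran from 0.984 to 1.20, and 5 of them were above 1, while 51.5% of all genes tested there were below 1. The median log2 ratio of the 6 was 0.13, against -0.01 for all genes tested. In T-47D cells, 3 of the 9 members passed the minimum on both arrays, and 1 of them, ITGAV, was called lower and 0 higher. Of 6413 genes tested in T-47D cells, 2.20% were called higher and 2.39% lower, a background against which 3 genes are too few to be read. All 3 ratios, from 0.471 to 0.619, were below 1, as were those of 51.7% of all genes tested. The median log2 ratio of the 3 was -0.76, against -0.02 for all genes. The balance of calls over all genes in T-47D cells depends on the scaling, with 141 higher and 153 lower as deposited, 179 and 125 after median centring, 135 and 98 after quantile normalization, and 27 and 1132 when the poly-A spike-in probe sets set the scale, which moved the median of all genes to -0.52 on the log2 scale. The 3 members stayed below a ratio of 1 under each of these scalings, and at -1.58, -1.19 and -1.26 on the log2 scale for ITGAV, ITGB1 and ITGB5 they were also below that shifted median.

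ITGAV, the αV chain, was the 1 member called, as lower with JPH203 in T-47D cells. Its single probe set had a signal of 171 with JPH203 and 363 with control in T-47D cells, and the ratio was 0.471. At or below it lay 1.64% of the genes tested, and 95% of T-47D genes of similar signal (a geometric mean of 200 to 500) had a ratio between 0.482 and 1.96. The same probe set had 821 with JPH203 and 744 with control in MDA-MB-231 cells, a ratio of 1.10, inside the 95% range of 0.786 to 1.31 for genes of similar signal there. Thus the JPH203 array was the lower of the pair in T-47D cells and the higher in MDA-MB-231 cells. The T-47D call was close to the threshold and was lost after quantile normalization (log2 ratio -0.96), after loess on signal (just short of 2-fold) and after removal of the trend on gene length (-0.87).

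ITGB1, the β1 chain shared by many matrix-binding integrins, was seen by 3 probe sets that reached 100 on every array. The brightest had 1346 with JPH203 and 2176 with control in T-47D cells, a ratio of 0.619. The next had 319 with JPH203 and 551 with control, a ratio of 0.578, and the third had 254 with JPH203 and 355 with control, a ratio of 0.715. All 3 were thus lower with JPH203 and none reached 2-fold. At or below the ratio of the brightest lay 8.98% of T-47D genes tested, and it was inside the 95% range of 0.563 to 2.07 for genes with a geometric mean signal of 1000 to 2000. In MDA-MB-231 cells these probe sets had 5324, 1963 and 1416 with JPH203 and 5187, 1828 and 1358 with control. Their ratios of 1.03, 1.07 and 1.04 were close to 1. The other 4 ITGB1 probe sets had signals of 0.2 to 23.1 and carry no level. A mean over all 7 gave ITGB1 a log2 ratio of 0.15 in T-47D and -0.48 in MDA-MB-231 cells, both opposite to the bright probe sets, since dim and bright ones weigh the same in it.

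ITGB5, the β5 chain that pairs with αV to bind vitronectin, had, on its brightest probe set, 438 with JPH203 and 742 with control in T-47D cells, a ratio of 0.591. At or below it lay 6.86% of T-47D genes tested, and the 95% range for genes of similar signal (500 to 1000) was 0.485 to 2.06. Its second probe set, of the _x_at type that can bind other transcripts, had 122 with JPH203 and 128 with control, a ratio of 0.953. The ITGB5 probe sets above the minimum therefore did not give the same size of difference. In MDA-MB-231 cells the brightest had 674 with JPH203 and 607 with control, a ratio of 1.11. A dimmer probe set had 78.8 with JPH203 and 34.9 with control there, both below the minimum, so that no size is read from its ratio of 2.26.

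**Figure D2:**
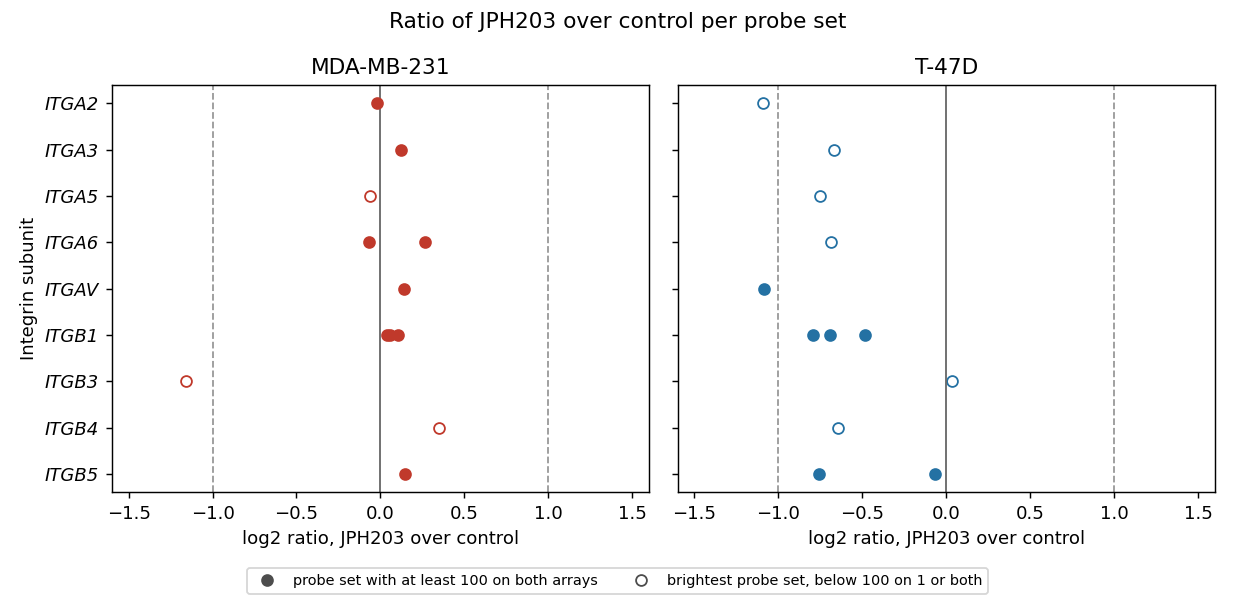
log2 of the JPH203 signal over the control signal (x axis) for probe sets of each integrin subunit (y axis) with MDA-MB-231 in the left panel (red) and T-47D in the right panel (blue). Filled points are probe sets with at least 100 on both arrays, open points the brightest probe set where it was below 100 on 1 or both, and dashed lines mark 2-fold. In T-47D cells the filled points run from 0.471 to 0.953 as ratios, and in MDA-MB-231 cells from 0.953 to 1.20.

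The laminin and collagen receptor α chains were dim in T-47D cells and bright in MDA-MB-231 cells. ITGA6, the α6 chain, had, on its brightest probe set, 1816 with JPH203 and 1511 with control in MDA-MB-231 cells, a ratio of 1.20 that 8.55% of genes reached or passed. Its other probe set had 658 with JPH203 and 691 with control there, a ratio of 0.953, so the pair of probe sets differed in direction. In T-47D cells ITGA6 had 57.9 with JPH203 and 93.3 with control, and 25.6 with JPH203 and 28.0 with control on the other, all below the minimum. ITGA3, the α3 chain, had 247 with JPH203 and 226 with control in MDA-MB-231 cells, a ratio of 1.09, and 27.6 with JPH203 and 43.9 with control in T-47D cells. ITGA2, the collagen-binding α2 chain, had 583 with JPH203 and 592 with control in MDA-MB-231 cells, a ratio of 0.984. In T-47D cells it had 48.3 with JPH203 and 103 with control, just above the minimum on the control array alone, so its ratio of 0.470 was not called. Its dimmer probe set had 90.0 with JPH203 and 112 with control in MDA-MB-231 cells and 29.0 with JPH203 and 43.8 with control in T-47D cells.

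ITGA5, the fibronectin receptor α5 chain, was below 100 on all 4 arrays, at 46.1 with JPH203 and 48.2 with control in MDA-MB-231 cells and 36.6 with JPH203 and 61.7 with control in T-47D cells. ITGB4, the hemidesmosomal β4 chain, had 74.1 with JPH203 and 58.1 with control in MDA-MB-231 cells and 65.2 with JPH203 and 102 with control in T-47D cells. It reached the minimum on the T-47D control array alone, and its other 4 probe sets had signals of 1.8 to 27.7. ITGB3, the β3 chain known from platelets and endothelium, had signals of 1.1 to 29.4 over 7 probe sets and 4 arrays, and no difference is read from them. A low signal of a probe set does not show that a gene is silent.

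By the brightest probe set, 8 of the 9 members, dim or bright, had a lower signal with JPH203 in T-47D cells, with ratios of 0.470 to 0.639, ITGB3 at 1.02 being the exception. This depends on the probe set, as ITGB1 was above 1 by the mean of its probe sets, and without _x_at and _s_at probe sets ITGB4 had a log2 ratio of 1.14 on a probe set with signals of 5.5 with JPH203 and 2.5 with control. In MDA-MB-231 cells 6 of the 9 were higher. Of the 8 in T-47D cells, 5 were below the minimum on 1 or both arrays, and dim genes there had a background of their own: among the 2302 genes with a control signal of 40 to 110 and less than 100 with JPH203, 68.9% had a ratio below 1, with a median of 0.858 and a 95% range of 0.342 to 1.62. The ratios of the dim members lay inside this range. The set was bounded to match the signals of those members, and it leaves out genes that rose past 100 with JPH203. Its share below 1, median and upper limit are thus partly set by that choice, and lying inside the range is no test. Long genes also had lower ratios in T-47D cells, with a median of 0.823 among the 1603 tested genes of 59.2 kb or more and 1.10 among the 1603 of 10.9 kb or less. ITGAV spans 90.8 kb and ITGB5 139 kb. ITGB1, at 57.9 kb, falls among the 1602 tested genes of 27.0 to 59.2 kb, whose median ratio was 0.958. After removal of the trend on gene length the log2 ratios were -0.87 for ITGAV, -0.49 for ITGB5 and -0.58 for ITGB1, all still below 0.

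In the control arrays the question was how the lines differ before treatment. A signal of at least 100 on 1 of the arrays was enough here, and no size was read where the other lay under it. Of 7 members so tested, 5 were called higher in MDA-MB-231 cells and 0 lower. These lines differ widely, with 23.1% of 8258 genes called higher and 24.2% lower in MDA-MB-231 cells. The median log2 ratio of the 7 members was 1.25, against 0.00 for all genes. It takes in ITGA3 and ITGA6, which passed through MDA-MB-231 cells alone, and ITGB4, which passed through T-47D cells alone. No size is therefore read from it. With the minimum on both arrays, 4 members were tested, with 3 called higher and 0 lower. Of 5699 genes so tested, 924 were higher and 915 lower. ITGB1 had 5187 in MDA-MB-231 against 2176 in T-47D control cells, a ratio of 2.38, and its 2 other bright probe sets gave 3.32 and 3.83. ITGAV had 744 in MDA-MB-231 against 363 in T-47D control cells, a ratio of 2.05, just past the threshold and lost under loess on signal, quantile normalization or median centring. ITGA2 had 592 in MDA-MB-231 against 103 in T-47D control cells, a ratio of 5.76 that rests on a T-47D signal just above the minimum. ITGA6 had 1511 in MDA-MB-231 against 93.3 in T-47D control cells, and ITGA3 had 226 in MDA-MB-231 against 43.9 in T-47D control cells, with the T-47D signals below the minimum and no size read.

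The β chains were less uniform. ITGB5 had 607 in MDA-MB-231 against 742 in T-47D control cells, a ratio of 0.819, and was thus a chain with more signal in the T-47D control array. Its second probe set had 69.1 in MDA-MB-231 against 128 in T-47D control cells. ITGB4 had 58.1 in MDA-MB-231 against 102 in T-47D control cells, and was not called. The order of both depends on the scaling, as with the scale set by the poly-A spike-ins ITGB5 had a log2 ratio of 1.25 and ITGB4 of 0.73, MDA-MB-231 over T-47D. That scaling moved the median of all genes to 1.54 on the log2 scale, the spike-in signal of the MDA-MB-231 control array being 0.344 times that of the T-47D control array, and relative to it ITGB5 and ITGB4 were still lower.

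**Figure D3:**
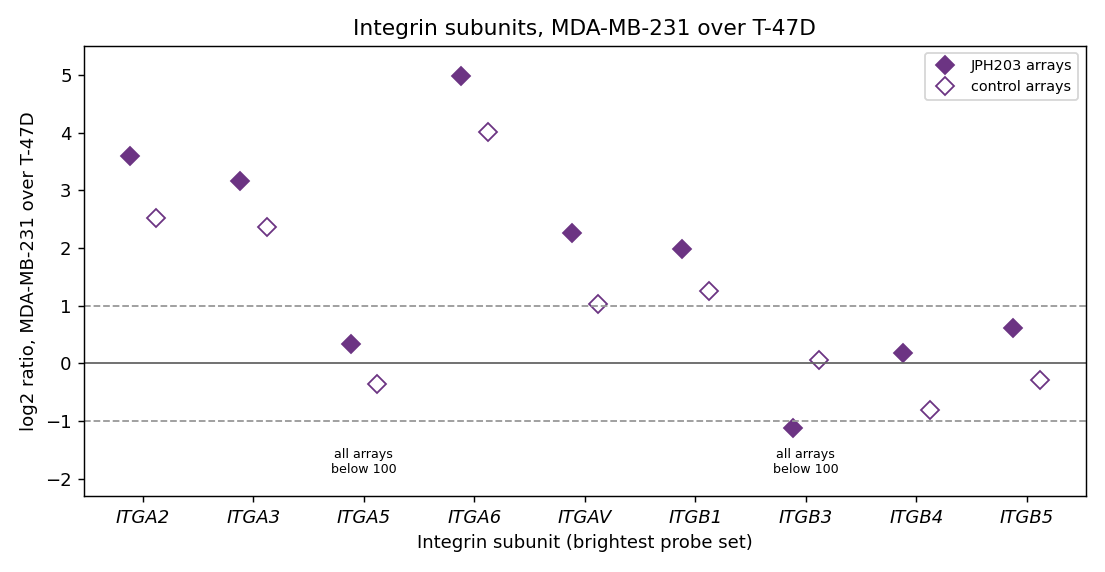
log2 ratio of MDA-MB-231 over T-47D (y axis) for the brightest probe set of each integrin subunit (x axis), with filled diamonds for the JPH203 arrays and open diamonds for the control arrays, each from 1 array per line, and dashed lines at 2-fold. Ratios of ITGA3 and ITGA6 on both kinds of array, and of ITGA2 on the JPH203 arrays, rest on a T-47D signal below 100 and mark a direction, not a size, and ITGA5, ITGB3 and ITGB4 were below 100 in 1 or both lines. ITGAV is at 2.26 on the JPH203 arrays and 1.03 on the control arrays, and ITGB5 at 0.62 and -0.29.

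On the JPH203 arrays 6 members were tested by the same rule, and the same 5 genes were called higher in MDA-MB-231 cells. Over all 8201 genes so tested, 2267 were called higher and 2089 lower. ITGAV had 821 in MDA-MB-231 against 171 in T-47D cells, a ratio of 4.80, and ITGB1 5324 in MDA-MB-231 against 1346 in T-47D cells, a ratio of 3.96. ITGB5 had, on its brightest probe set, 674 in MDA-MB-231 against 438 in T-47D cells with JPH203, a ratio of 1.54. By that probe set its order was the reverse of that on the control arrays. The second ITGB5 probe set had 103 in MDA-MB-231 against 122 in T-47D cells with JPH203, a ratio of 0.842, and kept the order of the control arrays. None of these ITGB5 ratios reached 2-fold. These comparisons use the same arrays as those with JPH203 over control and are not independent of them. Of 8 known pairs of measured members, both chains had a signal of at least 100 for 5 on each MDA-MB-231 array (α2β1, α3β1, α6β1, αVβ1 and αVβ5), for 2 on the T-47D array with JPH203 (αVβ1 and αVβ5), and for 3 on the T-47D control array, where α2β1 was just above the minimum.

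Outside the list, 16 other integrin subunits had 42 probe sets, and 1 of them, ITGAE, had a signal of at least 100 on any array. ITGAE encodes αE, which pairs with β7 to bind E-cadherin and is known from lymphocytes in epithelia. It had 1285 with JPH203 and 1470 with control in MDA-MB-231 cells, a ratio of 0.874, and 1763 with JPH203 and 922 with control in T-47D cells, a ratio of 1.91, short of 2-fold. Its direction was opposite to that of ITGAV, ITGB1 and ITGB5 in both lines. ITGB7, its partner, had signals of 1.5 to 3.8. The leukocyte chains ITGAL, ITGAM, ITGAX and ITGB2 stayed below 30.0 on all 4 arrays.

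Genes that work with integrins were taken from lists. The lower ratios of long genes in T-47D cells, given above, were not removed from the list values, and their part in these was not tested. Of 14 ligand genes tested in MDA-MB-231 cells, 0 were called with JPH203, and CCN1, a matrix protein bound by αV integrins, had 6083 with JPH203 and 5808 with control. THBS1, thrombospondin, had 4692 with JPH203 and 3700 with control, a ratio of 1.27. In T-47D cells all 7 ligand genes tested were below 1, against 51.7% of the 6413 genes tested there. Of the 7, 1 was called, against 2.39% of all genes called lower, and 7 genes are too few to be read. The called one, LAMC1, the laminin γ1 chain, had 130 with JPH203 and 297 with control, a ratio of 0.438. Its dimmer probe set had 89.8 with JPH203 and 163 with control. CCN1 had 875 with JPH203 and 1359 with control there, a ratio of 0.644, and COL1A1, a collagen chain, 468 with JPH203 and 656 with control, a ratio of 0.714. The ligands had a median log2 ratio of 0.08 for MDA-MB-231 and -0.49 for T-47D cells.

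Among adaptors and kinases of focal adhesions, 0 of 15 tested were called in MDA-MB-231 cells, where ACTN1, an actin crosslinker, had a ratio of 0.937 and VCL, vinculin, of 0.990. In T-47D cells 12 of 14 tested were below 1, against 51.7% of all genes tested, with a list median of -0.38 on the log2 scale. Over all genes 2.39% were called lower, and of these 14 adaptors and kinases 1 was called. It was CTTN, cortactin, whose brightest probe set fell, with 428 with JPH203 and 993 with control, a ratio of 0.431. A dimmer one had 180 with JPH203 and 134 with control, a ratio of 1.34, so the CTTN probe sets above the minimum ran in opposite directions. ACTN1 had 1181 with JPH203 and 2055 with control there, a ratio of 0.575, and TNS3, a tensin, 1003 with JPH203 and 1337 with control, a ratio of 0.750. VCL had 476 with JPH203 and 925 with control in T-47D cells, a ratio of 0.514, and is named after its values were seen. The linker ILK, integrin-linked kinase, had 237 with JPH203 and 243 with control there, a ratio of 0.979, and is also named after its values were seen.

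Of the activators and inactivators tested in T-47D cells, 3 of 5 were above 1 and 0 were called, with a median log2 ratio of 0.02. RAP1B, the small GTPase that brings talin to integrins, had 1671 with JPH203 and 1321 with control in T-47D cells, and ITGB1BP1, which competes with talin for the β1 tail, 442 with JPH203 and 373 with control. In MDA-MB-231 cells 2 of 6 were above 1, with 0 called and a median of -0.10. RAP1B there had 1519 with JPH203 and 1677 with control, and ITGB1BP1 1343 with JPH203 and 1631 with control, a ratio of 0.824. Of the hemidesmosome and tetraspanin partners, 0 of 13 were called in MDA-MB-231 and 0 of 10 in T-47D cells, with median log2 ratios of 0.09 and -0.22. The tetraspanin CD63 had 3407 with JPH203 and 3195 with control in MDA-MB-231 cells and 9107 with JPH203 and 7576 with control in T-47D cells. CAV1, caveolin, had 5651 with JPH203 and 5875 with control in MDA-MB-231 cells, and CD47, an αV-associated protein, 2242 with JPH203 and 2636 with control in T-47D cells. SLC3A2, named after its values were seen, is the heavy chain partner of LAT1 and also binds β integrin tails, and had 851 with JPH203 and 509 with control in MDA-MB-231 cells, a ratio of 1.67, and 821 with JPH203 and 619 with control in T-47D cells, a ratio of 1.33. Neither was called. Of trafficking genes, 0 of 11 were called in MDA-MB-231 and 0 of 12 in T-47D cells, with median log2 ratios of 0.00 and -0.18. CLTC, the clathrin heavy chain that takes integrins into the cell, had 3213 with JPH203 and 5240 with control in T-47D cells, a ratio of 0.613, and 4188 with JPH203 and 4419 with control in MDA-MB-231 cells. HAX1, a binding partner of ITGB6, had 5466 with JPH203 and 2772 with control in T-47D cells, a ratio of 1.97, and RAB11A, a GTPase of recycling endosomes, 1511 with JPH203 and 1685 with control in MDA-MB-231 cells.

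**Figure D4:**
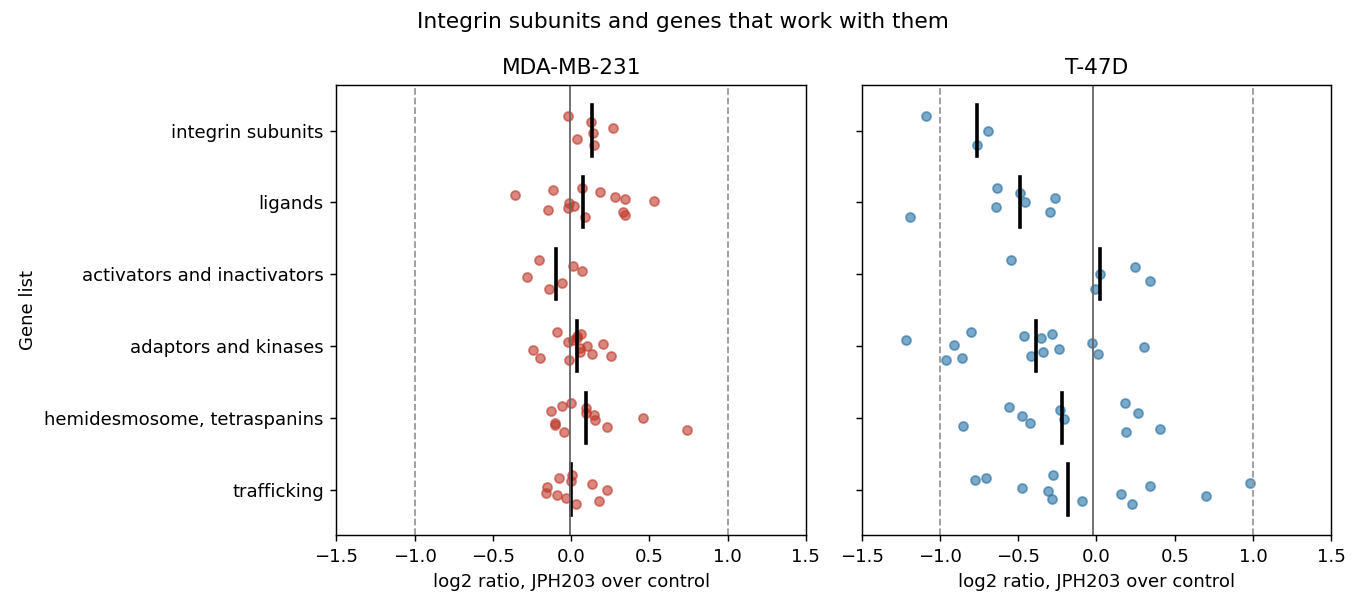
log2 of the JPH203 signal over the control signal (x axis) of the tested genes of each list (y axis) with MDA-MB-231 in the left panel (red) and T-47D in the right panel (blue), each point being 1 gene by its brightest probe set and each black bar the list median. The grey line is the median of all genes tested and the dashed lines 2-fold. The other integrin subunits, of which ITGAE alone was tested, are not plotted. In T-47D cells the plotted medians run from -0.76 for the integrin subunits to 0.02 for the activators and inactivators.

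Between the control arrays, 12 of 17 ligands tested were called higher in MDA-MB-231 cells and 3 lower. Most of the higher ones were below the minimum in T-47D cells and passed through MDA-MB-231 cells alone. Over all genes 23.1% were called higher and 24.2% lower. EDIL3, a ligand of αV integrins, had 603 in MDA-MB-231 against 0.3 in T-47D cells. LAMB3, a chain of the laminin bound by α3β1 and α6β4, had 636 in MDA-MB-231 against 5.7 in T-47D cells. The tenascin gene TNC, the matricellular CCN2 and the collagens COL5A1 and COL4A2 had 213 to 2534 in MDA-MB-231 against 2.0 to 39.3 in T-47D cells. All 6 were below the minimum in T-47D cells, so no size is read. The 3 lower ligands, chosen after their values were seen, lay below the minimum in MDA-MB-231 cells. COL1A1 had 42.9 in MDA-MB-231 against 656 in T-47D cells, and the laminin chains LAMA5 and LAMB2 had 83.8 and 67.4 in MDA-MB-231 against 247 and 189.5 in T-47D cells. Of the activators and inactivators 5 of 7 were called higher for MDA-MB-231 cells and 1 lower. ITGB1BP1 had 1631 in MDA-MB-231 against 373 in T-47D cells, a ratio of 4.37, RAP1A 1195 in MDA-MB-231 against 394 in T-47D cells, a ratio of 3.03, and FERMT1 and FERMT2, the kindlins, ratios of 2.55 and 2.18. APBB1IP, which links RAP1 to talin, had 225 in MDA-MB-231 against 8.0 in T-47D cells, and the inactivator SHARPIN was the lower one, with 96.5 in MDA-MB-231 against 224 in T-47D cells. Of 15 adaptors, PARVA with a ratio of 4.11, VCL with 2.16 and TGFB1I1, below the minimum in T-47D cells, were the higher ones, and TNS3 with 0.395 was lower. Of 13 partners, DST with a ratio of 2.68, and CAV1, PLAUR and PLEC, below the minimum in T-47D cells, were higher, and CD63 with 0.422 was lower. Of the trafficking genes, 0 of 13 were called higher and 5 lower in MDA-MB-231 cells. RAB25, a RAB11 relative that returns α5β1 to the surface, had 8.4 in MDA-MB-231 against 3106 in T-47D cells, and RAB11FIP1, HAX1, RAB7A and RAB11A had ratios of 0.250, 0.315, 0.459 and 0.498.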

How the data were processed

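Total RNA of each culture was measured on 1 array per condition, and the authors deposited linear signal intensity values per probe set, made with GCOS, its version and settings being not given in the sources used here. With the top and bottom 2% of values left out, the array means were all 100.0, as global scaling to a target of 100 gives. No detection calls were used, and the number of arrays limits the precision. Probe sets were named through the platform annotation, 41097 naming 1 gene, 1801 several and 11777 none, and 41043 of the first matched a RefSeq table (GRCh38.p14) by gene identifier. The level of a gene was that of its brightest probe set naming it alone, by mean log2 signal over the 4 arrays. Ratios and calls are as defined in the results, with no test, as each group is 1 array. The members, gene lists and call rule were chosen with earlier results of these data known. Named were all members, per list the called genes (at most 6) or the 2 brightest on the arrays compared, and any other gene is marked. The call rule was tested on simulated 3-fold changes of bright genes with little noise. That test does not cover a ratio near 2-fold, such as that of ITGAV. Alternatives were median centring, quantile normalization, loess on signal (span 0.4), a pseudocount of 16, minimum signals of 50, 200 and none, thresholds of 1.5-fold and 3-fold, and other choices of probe set and arrays. Scaling to 27 poly-A spike-in probe sets and removal of the gene length trend were added once the data had been seen. So was, for JPH203 over control, a minimum on at least 1 array of the pair. Software was Python 3.11.15 (pandas 2.3.3, numpy 2.4.6, statsmodels 0.14.6 and matplotlib 3.10.9).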

Additional observations from a re-analysis of the deposited data

Results flagged for a closer look

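Integrin genes that reached 100 on every array and whose JPH203 ratio lay above 1 in 1 line and below 1 in the other were singled out, measured by the MDA-MB-231 log2 ratio less the T-47D one. This was 1.23 for ITGAV, 0.73 for ITGB1, 0.91 for ITGB5 and -1.13 for ITGAE. With 1 array per condition the difference was not tested. Opposite directions were common, found in 54.4% of the 5275 genes with such signals, and 26.4% were higher in MDA-MB-231 and lower in T-47D cells, as ITGAV, ITGB1 and ITGB5 were.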

How the results depend on the processing

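In MDA-MB-231 cells the count of members called with JPH203 was 0 under every alternative run but that with no minimum signal, where it was 1 (ITGB3, from signals of 13.2 and 29.4). In T-47D cells the count of 1 was 0 after quantile normalization, loess on signal or removal of the gene length trend, and at a minimum signal of 200 or a 3-fold threshold. It was 2 with no minimum signal or with the minimum on at least 1 array of the pair (ITGA2 being added). At a 1.5-fold threshold, or with the scale set by the poly-A spike-ins, it was 3 (ITGAV, ITGB1 and ITGB5). All those calls were lower with JPH203. The count of 5 members higher in the MDA-MB-231 control array was 3 at a 3-fold threshold (ITGA2, ITGA3 and ITGA6) and 3 with the minimum on both arrays (ITGA2, ITGAV and ITGB1), and 4 to 6 under the others, 1.5-fold giving 5 higher and 1 lower. The called ITGAV ratio in T-47D cells kept its sign under the 8 alternatives run on it. The 5 called ratios between the control arrays did so under the 7 run on them, or 6 for ITGA3, which has no other probe set. Not all of these could change a sign. A pseudocount cannot, and both choices of probe set returned the same value for ITGAV, which has a single one. The mean of probe sets likewise left ITGA3 as it was, and leaving out _x_at and _s_at probe sets left ITGA2 and ITGA6. The gene length trend was not removed between the lines. The ITGAV ratio between the control arrays was 0.98 to 1.00 on the log2 scale under median centring, quantile normalization and loess. The cause of these changes was not tested. Signals below 100 limit what can be said of ITGA5, ITGB3 and ITGB4 in either line and of ITGA2, ITGA3 and ITGA6 in T-47D cells.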
